A study of Mus musculus with 22 samples.

Results

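The aryl hydrocarbon receptor (AHR) pathway was described in mouse duodenal organoids treated with cold atmospheric plasma (CAP), through the 6 genes Cyp1a1, Cyp1b1, Ahr, Ahrr, Arnt and Tiparp of the 52636 genes measured. The members were chosen by name, with their values in all 22 libraries already known, so their levels and fold changes are given as a description, without a p-value each. Where members are counted by an adjusted or unadjusted p, nothing is read from the count. Organoids are 3-dimensional cultures grown from intestinal stem cells. They came from the duodenum of wild-type CD1 mice that were 2 months old, as 4 lines of 1 mouse each, called lines 1 to 4 here. Lines 1 and 2 were at passage 12 and 14, and lines 3 and 4 at passage 4 according to the labels. Each of the 4 lines gave 1 untreated library, and lines 1, 2 and 4 also gave 1 library for each of the 6 treatments; line 3 was seen only untreated. The helium plasma was set to 50 W and 60 s. For direct CAP the jet was aimed at the culture itself at day 1, with fresh medium after 30 min or 24 h. For indirect CAP the organoids were fed medium taken from other treated organoids, and for plasma-activated medium (PAM) they were fed medium treated without organoids, starting at day 1 or day 2. These 4 groups are taken here as exposed for 24 h and collected at day 3, as the design of the study describes them, while the deposited labels give 30 min for those started at day 1. In that design, the day-1 groups were fed freshly made treated medium, then fresh culture medium from day 2 until collection. The day-2 groups were fed medium that had been treated at day 1 and were collected as their exposure ended. Start day, age of the treated medium and time since exposure therefore cannot be told apart. The time at which the 30 min group was collected is not certain.

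AHR is a transcription factor of the bHLH-PAS family that is held in the cytoplasm by chaperones until it binds a ligand, such as dioxins, polycyclic aromatic compounds or tryptophan-derived indoles. It then enters the nucleus, pairs with ARNT and binds DNA at the core sequence GCGTG. Its best known target is Cyp1a1, a cytochrome P450 that oxidises the ligands themselves. Ahrr and Tiparp are targets that restrain the receptor. In the gut, AHR senses dietary and microbial ligands and is known to take part in barrier defence and in the control of stem cells.

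The 3 members whose values spread most over the libraries carry the core sequence in the bases just before their start, and these bases are shown to set the genes beside their values. The 250 bases upstream of the RefSeq start are given on the strand of the gene in build GRCm38.p6, at chr9:57697363-57697612 for Cyp1a1 (plus strand), chr17:79715062-79715311 for Cyp1b1 (minus strand) and chr13:74292332-74292581 for Ahrr (minus strand). Capitals mark GCGTG, or CACGC where the core is on the other strand.
Cyp1a1: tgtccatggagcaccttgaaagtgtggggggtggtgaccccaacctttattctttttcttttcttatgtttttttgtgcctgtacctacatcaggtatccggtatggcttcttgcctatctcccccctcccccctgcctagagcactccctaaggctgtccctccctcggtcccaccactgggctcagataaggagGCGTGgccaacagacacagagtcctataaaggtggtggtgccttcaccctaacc
Cyp1b1: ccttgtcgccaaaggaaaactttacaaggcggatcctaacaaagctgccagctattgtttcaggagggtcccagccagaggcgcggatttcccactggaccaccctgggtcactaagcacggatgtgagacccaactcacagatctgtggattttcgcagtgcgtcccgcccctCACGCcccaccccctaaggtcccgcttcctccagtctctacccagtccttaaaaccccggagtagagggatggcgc
Ahrr: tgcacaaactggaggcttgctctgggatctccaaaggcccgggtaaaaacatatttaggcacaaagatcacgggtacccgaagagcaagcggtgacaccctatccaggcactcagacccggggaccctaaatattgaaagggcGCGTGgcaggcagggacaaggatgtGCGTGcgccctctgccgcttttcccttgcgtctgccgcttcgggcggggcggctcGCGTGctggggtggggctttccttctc
The core was found 1 time for Cyp1a1, 54 bases before the start, 1 time for Cyp1b1, 76 bases before it, and 3 times for Ahrr, at 107, 82 and 27 bases. In the same window, Arnt held 1 copy at 29 bases and Tiparp 1 copy at 170 bases, so that each of the 5 of 6 members in the table had a match. Of 32851 RefSeq promoters of this length, 9250 (28.2%) held at least 1 copy on either strand and 911 (2.77%) held at least 3. A match of these letters describes the sequence and is not a measured binding site.

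The value per gene and library is a read count that the authors scaled to 20 M per library and rounded up, here called scaled reads. It is not divided by gene length. The number of reads behind a library, inferred from the steps between low values, was 19.95 to 28.68 M (M for mega, median 22.5), so that a value near 10 rests on about 10 reads. The 6 epithelial markers (Epcam, Cdh1, Vil1, Krt8, Krt18 and Cldn7) summed to 92035 to 158179 scaled reads over the 22 libraries. The 8 mesenchymal markers summed to 13 to 45, with Lum at 0 in every library, the 4 endothelial markers to 12 to 111, and the 6 leukocyte markers to 288 to 435, of which Csf1r made up 241 to 334 and Ptprc 0 to 12. Over the libraries the endothelial Tek reached 104, Pecam1 28, Cdh5 3 and Kdr 1, and the mesenchymal Pdgfrb reached 35 and Col1a1 13. Beside the groups, the 4 stem cell markers Lgr5, Olfm4, Smoc2 and Ascl2 summed to 28399 to 33368 in untreated organoids, 17213 to 26825 after direct CAP for 30 min, 4515 to 8518 after 24 h, 4840 to 12267 with day-1 indirect CAP, 770 to 1998 with day-1 PAM, 1951 to 2662 with day-2 indirect CAP and 650 to 1925 with day-2 PAM. The goblet cell markers summed to 16339 to 25174 in untreated organoids, to 27282 to 48057 after direct CAP for 24 h and 25315 to 60056 with day-1 PAM, above them, and to 4536 to 14921 with day-2 PAM, below them. The Paneth cell markers summed to 20896 to 29593 in untreated organoids and lay below that range after direct CAP for 24 h (9554 to 18145), with day-1 indirect CAP (5899 to 16298), day-1 PAM (3648 to 15499) and day-2 PAM (3686 to 16554). The share of reads from mitochondrial genes was 1.24% to 1.54% in untreated libraries and at most 1.02% in the libraries of day-1 PAM and of both day-2 groups. The part of these differences in the results below was not tested, and in bulk RNA, fewer cells of a type and less RNA per cell cannot be told apart.

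**Figure D1:**
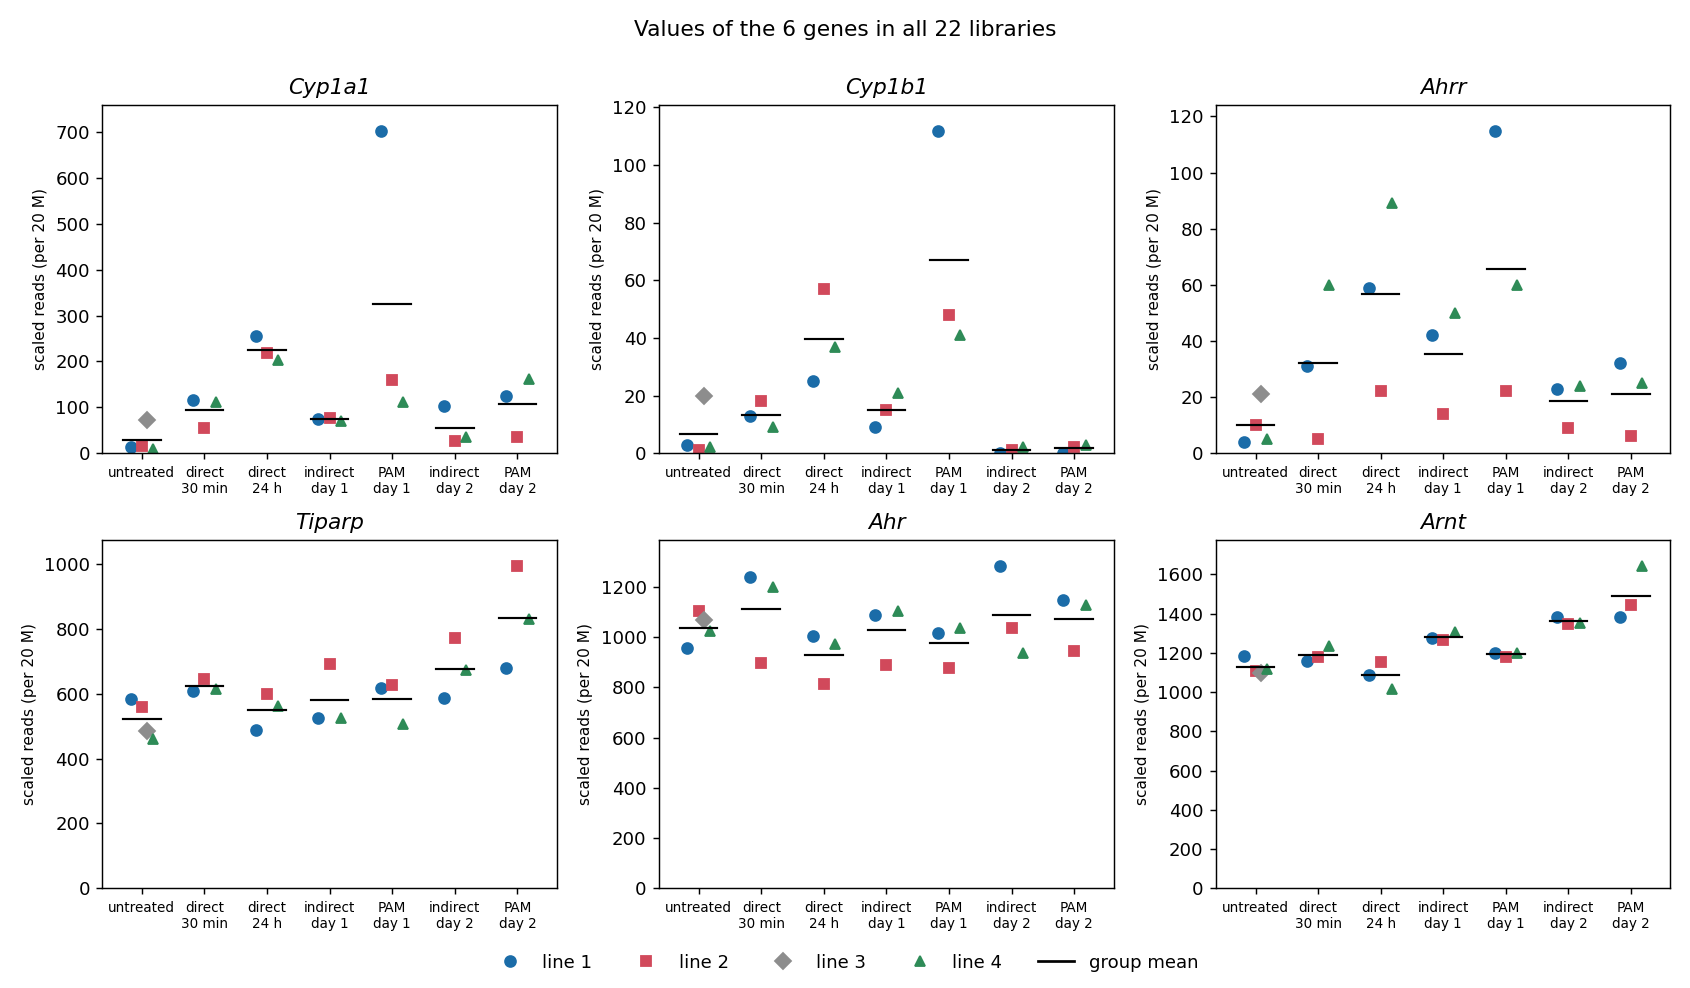
Scaled reads (per 20 M, linear axis from 0) of each of the 6 genes in every library, by group. Points are libraries, with colour and shape for the organoid line, and black bars are group means. Cyp1a1 reached 704 in the day-1 PAM library of line 1 and did not exceed 73 in the untreated libraries, whereas Ahr stayed between 814 and 1285.

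The receptor gene itself was among the most even members. Ahr (ENSMUSG00000019256) lies on GRCm38 chromosome 12, 35497974 to 35535038, minus strand. In untreated organoids its values were 956, 1104, 1068 and 1023 in lines 1 to 4, a mean of 1038 ± 63.8 (SD, n = 4). They were 1239, 898 and 1198 in lines 1, 2 and 4 after direct CAP for 30 min, and 1005, 814 and 972 after 24 h. With conditioned medium they were 1090, 891 and 1103 for day-1 indirect CAP, 1016, 876 and 1037 for day-1 PAM, 1285, 1038 and 937 for day-2 indirect CAP, and 1147, 943 and 1130 for day-2 PAM. All neighbours in the order of the 7 group means overlapped, from 1112 ± 186 after 30 min of direct CAP down to 930 ± 102 after 24 h (SD, n = 3 each). The libraries ranged 1.58-fold from lowest to highest. Line 2 was the lowest of the 3 lines in 5 of the 6 treated groups. Ahr shares exon bases with the long noncoding gene Gm48236 on the opposite strand, which did not exceed 91, and the use of strand in counting is not given in the sources used here.

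Arnt, the partner of AHR and also of the hypoxia factor HIF1A, was higher in the groups treated from day 2. It (ENSMUSG00000015522) lies on chromosome 3, 95434388 to 95497240, plus strand. Its values in lines 1, 2, 3 and 4 untreated were 1182, 1107, 1096 and 1120. In lines 1, 2 and 4 they were 1383, 1345 and 1354 with day-2 indirect CAP and 1383, 1443 and 1645 with day-2 PAM, and all 6 of these libraries lay above the untreated ones. The 3 libraries of day-1 indirect CAP, at 1275, 1267 and 1306, were also above. Those of direct CAP for 30 min (1161, 1177 and 1234), direct CAP for 24 h (1089, 1154 and 1017) and day-1 PAM (1198, 1180 and 1198) overlapped the untreated range. The order of group means ran from 1490 ± 137 with day-2 PAM and 1361 ± 19.9 with day-2 indirect CAP, which overlapped, to 1283 ± 20.6 with day-1 indirect CAP, which was separate from both of its neighbours, and on to day-1 PAM, direct CAP for 30 min, untreated at 1126 ± 38.4 and direct CAP for 24 h at 1087 ± 68.5, each of which overlapped the next.

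Per kilobase of exon, the receptor and its partner were far above the feedback repressor. Untreated means were 168 ± 10.3 scaled reads per kilobase for Ahr, 141 ± 4.80 for Arnt, 120 ± 13.6 for Tiparp, 10.05 ± 10.8 for Cyp1a1, 1.11 ± 1.55 for Cyp1b1 and 1.06 ± 0.825 for Ahrr (SD, n = 4). On the same per-kilobase scale, Cyp1a1 stood at 80.9 ± 9.60 after direct CAP for 24 h and 116 ± 118 with day-1 PAM, while Ahrr reached 6.96 ± 4.95 and Cyp1b1 11.5 ± 6.70 with day-1 PAM (n = 3).

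Cyp1a1, the enzyme most used as a readout of the receptor, had a higher mean in each treated group than in untreated organoids. The gene (ENSMUSG00000032315) spans chromosome 9, 57687928 to 57703824, plus strand. Its scaled reads were 14, 15, 73 and 10 in untreated lines 1 to 4. Line 3 stood apart from the other untreated lines, and it has no treated library.

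After direct CAP for 30 min Cyp1a1 was at 116, 55 and 112 in lines 1, 2 and 4, and after direct CAP for 24 h at 255, 218 and 203. It was at 74, 77 and 70 with day-1 indirect CAP and at 704, 159 and 111 with day-1 PAM. With medium given from day 2, it was at 102, 27 and 36 for indirect CAP and at 124, 35 and 162 for PAM. The libraries of direct CAP for 24 h and of day-1 PAM lay above all 4 untreated ones, and the other groups overlapped line 3 only, since each treated library was above the 15 reached by the other 3 untreated lines. Within a line, treated exceeded untreated in 3 of 3 lines in each group. Direct CAP for 24 h gave the narrowest spread of these differences but for day-1 indirect CAP, at 3.77 to 4.21 on the log2(value + 1) scale against 2.29 to 2.69, while day-1 PAM gave 3.32 to 5.55 and day-2 indirect CAP 0.81 to 2.78.

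The group means of Cyp1a1 were ordered from 325 ± 329 with day-1 PAM and 225 ± 26.8 after direct CAP for 24 h, through 107 ± 65.2 with day-2 PAM, 94.3 ± 34.1 after direct CAP for 30 min, 73.7 ± 3.51 with day-1 indirect CAP and 55.0 ± 41.0 with day-2 indirect CAP, to 28.0 ± 30.1 untreated (SD, n = 3, untreated n = 4). Direct CAP for 24 h did not overlap the next group below it, and all other neighbours in this order overlapped. The mean of day-1 PAM rested on line 1, whose 704 was the highest value of the gene in the series. The endothelial markers of that library summed to 111, against at most 60 in any other library, and its enterocyte markers to 68082, the lowest of the 22. That endothelial sum rests mostly on Tek, since Pecam1 did not exceed 28, Cdh5 3 and Kdr 1 in any library. The part of these markers in the value was not tested.

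Cyp1b1, a related P450 that acts on steroids and polycyclic aromatics, also had higher means in the groups treated at day 1 and was near 0 in those treated from day 2. The gene (ENSMUSG00000024087) lies on chromosome 17, 79701537 to 79715061, minus strand. Untreated lines 1 to 4 gave 3, 1, 20 and 2, with line 3 again apart. Lines 1, 2 and 4 gave 13, 18 and 9 after direct CAP for 30 min and 25, 57 and 37 after 24 h, 9, 15 and 21 with day-1 indirect CAP and 112, 48 and 41 with day-1 PAM. Over the 6 treated groups, line 1 was the lowest line in 4 for Cyp1b1 and the highest in 4 for Cyp1a1.

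With medium from day 2, Cyp1b1 was at 0, 1 and 2 for indirect CAP and 0, 2 and 3 for PAM, where Cyp1a1 in the same libraries was at 27 to 162. These values are too low to tell the day-2 groups from untreated lines 1, 2 and 4, and the gene did not pass the filter in any comparison of a day-2 group with untreated. It had 10 or more scaled reads in 11 of the 22 libraries. Group means ran from 67.0 ± 39.1 with day-1 PAM and 39.7 ± 16.2 after direct CAP for 24 h, which overlapped, to 15.0 ± 6.0 with day-1 indirect CAP, which was below both, and to 1.0 ± 1.0 with day-2 indirect CAP. Within lines 1, 2 and 4, each of the 4 groups treated at day 1 exceeded untreated in 3 of 3 lines, by 1.32 to 4.86 on the log2 scale.

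**Figure D2:**
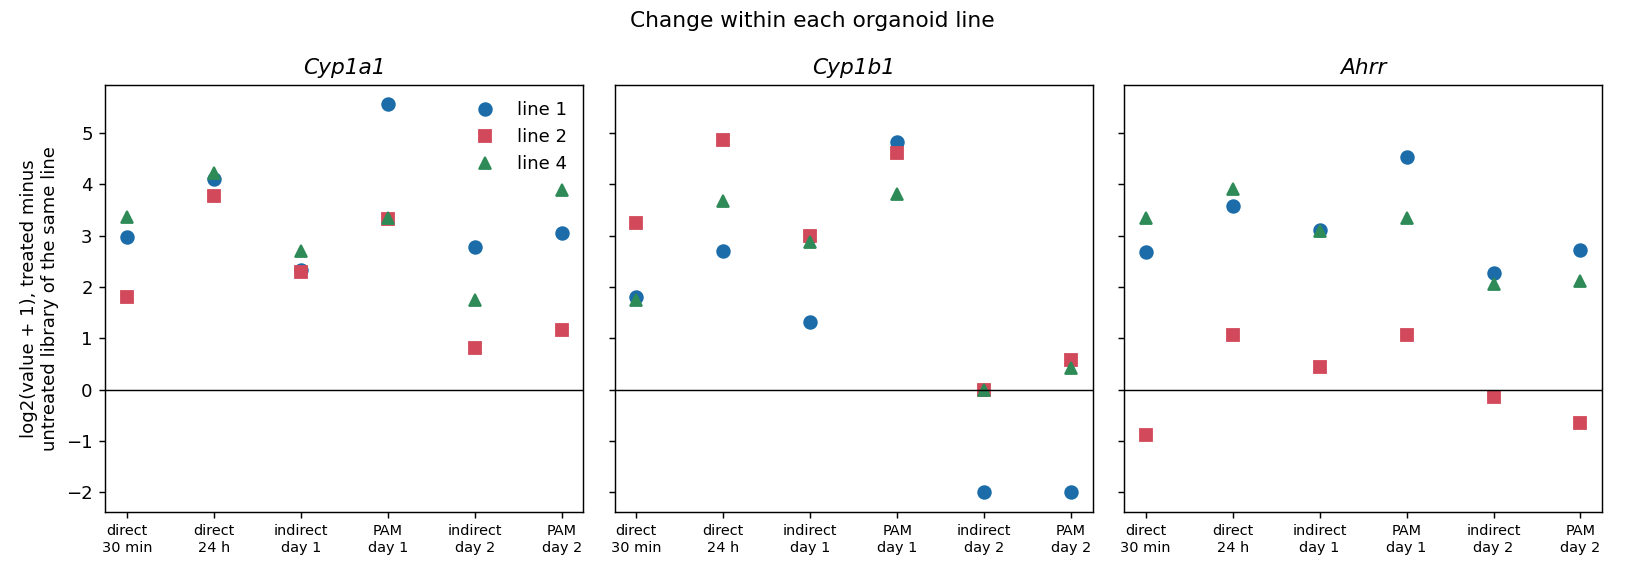
Difference in log2(value + 1) between the treated and the untreated library of the same organoid line, for Cyp1a1, Cyp1b1 and Ahrr in the 6 treated groups. Points are lines 1, 2 and 4. Every point of Cyp1a1 is above 0, those of Cyp1b1 fall to between -2.0 and 0.58 in the day-2 groups, and Ahrr in line 2 lies below lines 1 and 4 throughout.

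Ahrr encodes a repressor that competes with AHR for ARNT and for DNA, and it was higher after 24 h of exposure from day 1, at low values. It (ENSMUSG00000021575) lies on chromosome 13, 74211118 to 74292331, minus strand. Untreated lines 1 to 4 gave 4, 10, 21 and 5. Lines 1, 2 and 4 gave 31, 5 and 60 after direct CAP for 30 min, 59, 22 and 89 after 24 h, 42, 14 and 50 with day-1 indirect CAP, and 115, 22 and 60 with day-1 PAM. With medium from day 2 they gave 23, 9 and 24 for indirect CAP and 32, 6 and 25 for PAM. Direct CAP for 24 h and day-1 PAM did not overlap the untreated libraries, and the other groups did. Line 2 was the lowest of the 3 lines in 6 of 6 treated groups, and in it the treated library was below the untreated one after direct CAP for 30 min and in both day-2 groups. That order rests on the labels of untreated lines 1 and 2, whose pairing is in doubt, and the 5, 9 and 6 of line 2 in these groups are all above the 4 of the untreated library labelled line 1. All neighbours in the order of group means overlapped, from 65.7 ± 46.8 with day-1 PAM to 10 ± 7.79 untreated.

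Tiparp, an ADP-ribosyltransferase that marks AHR for removal, was at its highest with medium given from day 2. It (ENSMUSG00000034640) lies on chromosome 3, 65528410 to 65555518, plus strand. Untreated lines 1 to 4 gave 584, 560, 485 and 460. Lines 1, 2 and 4 gave 608, 647 and 616 after direct CAP for 30 min, 588, 772 and 675 with day-2 indirect CAP and 680, 996 and 830 with day-2 PAM, all above the untreated libraries. The values of 488, 600 and 564 after direct CAP for 24 h, 526, 692 and 526 with day-1 indirect CAP and 618, 628 and 506 with day-1 PAM overlapped the untreated ones. Group means ran from 835 ± 158 with day-2 PAM to 522 ± 59.2 untreated, with overlap between all neighbours. Line 2 was the highest line in 6 of 6 treated groups, the reverse of Ahrr. Tiparp shares exon bases with the pseudogene 4931440P22Rik on the opposite strand, which did not exceed 144.

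In the 9 libraries with 24 h of exposure from day 1 (direct, indirect and PAM together) Cyp1a1, Cyp1b1 and Ahrr had higher means than untreated organoids, while Tiparp, Arnt and Ahr differed little. These 9 libraries come from lines 1, 2 and 4, with 3 libraries each. They are not 9 mice, and the SE and adjusted p of this fit, for members and lists alike, treat them as independent, so these p-values are too small. Fitted on log2(value + 1) with limma against the 4 untreated libraries, the log2 fold change was 2.91 (SE 0.59) for Cyp1a1, 2.80 (SE 0.64) for Cyp1b1 and 2.26 (SE 0.53) for Ahrr. It was 0.13 (SE 0.10) for Tiparp, 0.07 (SE 0.07) for Arnt and -0.09 (SE 0.09) for Ahr. Of the 9 treated libraries, 8 lay above every untreated library for Cyp1a1, 7 for Cyp1b1 and 8 for Ahrr. The call used here asks for a Benjamini-Hochberg adjusted p under 0.01 over all genes tested together with a change of 1 or more on the log2 scale, and 3 of 6 members met it, beside 6.34% of the 18490 genes tested. In this and every other comparison with untreated where they were tested, Cyp1b1 and Ahrr passed the filter only with the treated libraries. Fewer than 3 untreated libraries had 10 or more for either gene, so their folds and calls are only a description. As the members were chosen with these values known, nothing is read from the count of 3 of 6. It was 0 without the untreated library of line 1, 2 or 4. It was also 0 when the 3 libraries of each line were averaged first, so that 3 lines stood against 4 untreated libraries, and 4.07% of genes then met the call. That fit was added after seeing the data.

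**Figure D3:**
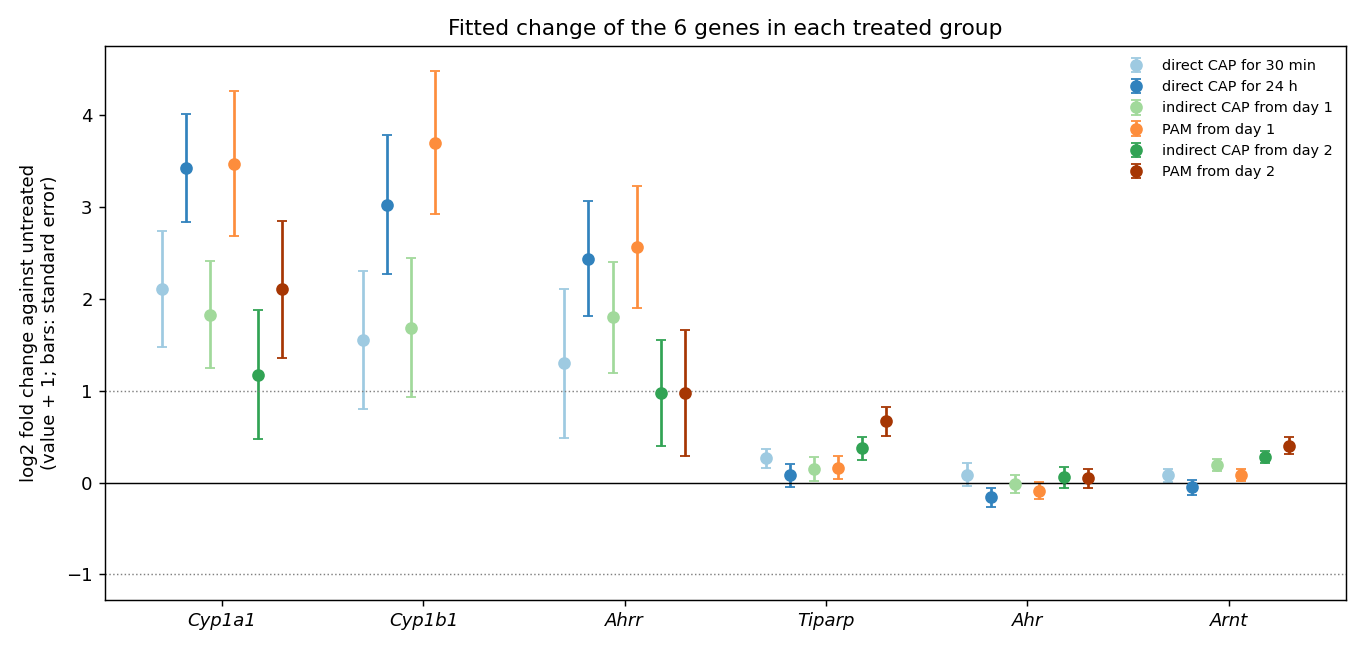
Fitted log2 fold change against untreated (limma on log2(value + 1), bars are 1 SE) of the 6 genes in each treated group, with 3 treated and 4 untreated libraries per fit. Dotted lines mark a log2 fold change of 1 either way. Cyp1a1, Cyp1b1 and Ahrr sit between 0.98 and 3.70, and Tiparp, Ahr and Arnt between -0.16 and 0.67. Cyp1b1 was not tested in the day-2 groups.

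Group by group against the same 4 untreated libraries, which all these comparisons share, direct CAP for 24 h gave 3.42 (SE 0.59) for Cyp1a1, 3.02 (SE 0.76) for Cyp1b1 and 2.43 (SE 0.62) for Ahrr, and day-1 PAM gave 3.47 (SE 0.79), 3.70 (SE 0.78) and 2.56 (SE 0.66). The call was met by 1 member (Cyp1a1) after direct CAP for 24 h, beside 2.17% of genes, and by 2 (Cyp1a1 and Cyp1b1) with day-1 PAM, beside 10.2%. Cyp1b1 passed the filter in these fits only through the treated libraries, since of the untreated ones only line 3, at 20, had 10 or more. Ahrr also needed them, with untreated lines 1 and 4 at 4 and 5. The folds and calls of both genes are for that reason only a description. Cyp1a1, Cyp1b1 and Ahrr were the 3 members whose treated libraries all lay above the untreated ones in these groups, as did 11.6% of genes after direct CAP for 24 h and 17.1% with day-1 PAM. Without line 1, the folds with day-1 PAM were 2.67, 3.26 and 2.02, and 0 members met the call. The count in that group was also 0 without line 4 and 1 without line 2 of PAM, 0 without untreated line 1, 2 or 4, and 3 without untreated line 3. After direct CAP for 24 h it was 2 without untreated line 3 and 0 without any 1 of the other 6 libraries.

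With shorter or indirect exposure the folds were smaller. Direct CAP for 30 min gave 2.11 (SE 0.63) for Cyp1a1, 1.55 (SE 0.75) for Cyp1b1 and 1.30 (SE 0.81) for Ahrr, and day-1 indirect CAP gave 1.83 (SE 0.59), 1.68 (SE 0.76) and 1.80 (SE 0.61). In limma, 0 of 6 members met the call in either group, beside 0.00564% and 1.31% of genes, with 2 and 3 members at an unadjusted p under 0.05, as were 24.9% and 38.6% of genes. For Ahrr the value of 5 in line 2 set the spread after 30 min, and its fold was 2.26 without that library. The members that lay wholly above untreated were Tiparp after 30 min (12.4% of genes did) and Arnt with day-1 indirect CAP (16.7%).

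In the groups started at day 2, which also differ in age of the medium and time since exposure, the pattern of the members changed. Cyp1a1 was at 1.17 (SE 0.70) for indirect CAP and 2.10 (SE 0.75) for PAM, and Ahrr at 0.98 (SE 0.58) and 0.98 (SE 0.69), while Arnt was at 0.27 (SE 0.06) and 0.40 (SE 0.09) and Tiparp at 0.37 (SE 0.13) and 0.67 (SE 0.15). Of the 5 members that passed the filter, 0 met the call in limma, beside 11.9% of genes for indirect CAP and 17.3% for PAM, with 2 and 3 members at an unadjusted p under 0.05, as were 52.1% and 55.4% of genes. Arnt and Tiparp were the 2 members wholly above untreated in each, as were 22.7% and 20.7% of genes. Under quantile normalization the median of all genes moved from -0.12 to 0.00 in day-2 PAM, and Tiparp then stood at 0.89 and Arnt at 0.52.

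Set directly against each other, treated groups share no untreated library. From direct CAP for 30 min to 24 h, Cyp1a1 was higher by 1.32 (SE 0.30) and Cyp1b1 by 1.48 (SE 0.40) without overlap, as were 7.33% of genes. Arnt at -0.13 (SE 0.10) and Tiparp at -0.18 (SE 0.12) were wholly below, as were 20.6%. Day-1 indirect CAP was below direct CAP for 24 h without overlap for the same 2 genes, at -1.59 (SE 0.17) and -1.34 (SE 0.43), as were 3.11% of genes, and wholly above it for Arnt at 0.24 (SE 0.10), as were 10.8%. Day-1 PAM was above day-1 indirect CAP without overlap for both, at 1.64 (SE 0.63) and 2.02 (SE 0.46), as were 5.78% of genes, and wholly below it for Arnt at -0.11 (SE 0.08), as were 20%. Day-1 PAM and direct CAP for 24 h overlapped for both P450 genes, at 0.05 (SE 0.61) and 0.67 (SE 0.46), while Arnt was wholly above with PAM at 0.14 (SE 0.10), as were 5.68% of genes.

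Day-2 PAM stood below day-1 PAM without overlap for Cyp1b1, as it did for 16.9% of genes. It stood wholly above day-1 PAM for Arnt at 0.32 (SE 0.11) and Tiparp at 0.51 (SE 0.18), as it did for 16.2%. Cyp1b1 passed the filter here only through day-1 PAM, at 41 to 112, against 0 to 3 with day-2 PAM. Its fold of -4.75 (SE 0.64), or -2.62 with a pseudocount of 10, is for that reason only a description. Cyp1a1 overlapped between these groups at -1.37 (SE 0.81). Day-2 indirect CAP was wholly above day-1 indirect CAP for Arnt at 0.09 (SE 0.07), as were 12.1% of genes, and wholly below it for Cyp1b1, as were 14.7%. In limma the call was met by 0 members in each of the 7 comparisons between treated groups, and in these by 0% of genes, except 0.0111% between indirect CAP of day 2 and day 1. The number of members at an unadjusted p under 0.05 was between 0 and 3, and the share of genes at that p was between 6.95% and 26.8%.

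The other genes of the pathway were taken from 6 lists by role, 80 genes in all, of which 67 could be tested in the comparison of 24 h of exposure from day 1. Of these 67, 2 were higher and 1 was lower by the call (4.48%), beside 6.34% of all genes. The 3 genes are Arnt2, Ptgs2 and Kyat3. With the libraries of each line averaged first, 1 gene, Arnt2, met it (adjusted p = 0.0019), while Ptgs2 was at an adjusted p of 0.021 and Kyat3 at 0.0133 in limma. With line as a replicate block, a fit that leaves out untreated line 3, 7 met it, and without the day-1 indirect library of line 1 or 2 it was 5. Over all genes tested, the median log2 fold change was -0.05, and 44.1% of genes were at an unadjusted p under 0.05.

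Among other bHLH-PAS proteins and coactivators, 1 of 14 tested was higher and 0 lower by the call, with a median of 0.13. With each line averaged first, Npas2 (0.87), Per1 (0.70), Epas1 (0.58) and Ncoa3 (0.53) were higher at a limma adjusted p under 0.01. All of these were short of the minimum fold. The lowest limma adjusted p of a lower gene in that fit was 0.030, for Arntl (-0.40). Arnt2, a paralogue of ARNT that can pair with the same partners, rose from 331 ± 87.6 (n = 4) to 918 ± 229 scaled reads (n = 9), a log2 fold change of 1.47 (SE 0.20, limma adjusted p = 0.000265), with 9 of 9 libraries above untreated. It met the call also after direct CAP for 24 h (1.23, SE 0.20), with day-1 PAM (1.88, SE 0.19), day-2 indirect CAP (1.14, SE 0.21) and day-2 PAM (1.66, SE 0.21), where Arnt itself did not. Hif1a, which encodes the hypoxia partner of ARNT, did not meet it (0.25, SE 0.13, adjusted p = 0.143).

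In the xenobiotic gene battery, the detoxifying enzymes classically induced with Cyp1a1, 0 of 11 tested met the call in limma and the median was 0.29. Of the 11, 5 were at an unadjusted p under 0.05, as were 44.1% of all genes. Aldh3a1, an aldehyde dehydrogenase, had the largest fold, from 24.0 ± 15.6 to 126 ± 74.1 (2.64, SE 0.76, adjusted p = 0.0161), with 8 of 9 libraries above the untreated ones. Its values were 7 to 26 with day-2 indirect CAP and 3 to 29 with day-2 PAM, within the untreated range of 1 to 34. Nqo1, a quinone reductase, was at 2883 ± 759 and 3438 ± 422 (0.29, SE 0.14, adjusted p = 0.141). Gsta1, a glutathione transferase, was at 876 to 1466 untreated and wholly above that after direct CAP for 24 h (2096 to 2925). It was also above with day-1 indirect CAP (1862 to 1984) and day-1 PAM (2276 to 2451). With each line averaged first its fold was 0.88 (limma adjusted p = 0.0065), short of the minimum, while the lowest of the battery was Cyp2s1 at -0.33 (adjusted p = 0.268). Cyp1a2, the neighbour and paralogue of Cyp1a1, did not exceed 3 in any library and was not tested. The 4 Ugt1a genes share exons and their values cannot be told apart.

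Among other genes known to respond to AHR, 1 of 14 tested was higher and 0 lower by the call (median 0.16). With each line averaged first, Cdkn1b (-0.82), Znrf3 (-0.78) and Hes1 (-0.43) were lower at a limma adjusted p under 0.01. Polk (0.70) and Nfe2l2 (0.35) were higher at that limit, and all of these genes were short of the minimum fold. Ptgs2, the inducible cyclooxygenase, rose from 35.5 ± 29.0 to 251 ± 154 (2.89, SE 0.62, adjusted p = 0.00345), with 8 of 9 libraries above untreated, and also met the call with day-1 PAM (3.55, SE 0.70) and day-2 PAM (4.63, SE 0.85), where it ranged from 298 to 2139. Rnf43 and Znrf3 encode ubiquitin ligases that remove Wnt receptors. Rnf43 was at -0.02 (SE 0.12, adjusted p = 0.936). Znrf3 was at -0.78 (SE 0.18, adjusted p = 0.00477), short of the minimum fold, with 9 of 9 libraries below untreated, and it fell by 1.44 (SE 0.23) with day-2 PAM, where it met the call.

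Of the genes of tryptophan breakdown and AHR ligand supply, 8 of 15 could be tested and 1 was lower by the call (median 0.30). Kyat3, an aminotransferase that makes kynurenic acid, fell from 254 ± 98.7 to 96.8 ± 21.1 (-1.33, SE 0.23, adjusted p = 0.00114), with 9 of 9 libraries below untreated. It also met the call with day-1 PAM (-1.61, SE 0.32), day-2 indirect CAP (-1.99, SE 0.35) and day-2 PAM (-2.81, SE 0.40), where it ranged from 24 to 59. The list also gave 1 higher gene with day-1 indirect CAP, and 2 higher beside the lower Kyat3 in each day-2 group, where its medians were -0.16 for indirect CAP and 0.28 for PAM. These genes are named after their values were seen. Il4i1, an amino acid oxidase that makes AHR ligands from tryptophan, was at 183 ± 12.7 untreated (n = 4), a mean of 473 with day-1 indirect CAP (1.35, SE 0.15, adjusted p = 0.00342), 792 ± 141 with day-2 indirect CAP (2.09, SE 0.13, adjusted p = 4.17e-05) and 910 ± 195 with day-2 PAM (2.29, SE 0.16, adjusted p = 0.000272; n = 3 each). For 24 h of exposure from day 1 with each line averaged first, Il4i1 was higher by 0.89 (limma adjusted p = 0.00203), short of the minimum fold. Kyat3 was at -1.33 (limma adjusted p = 0.0133) in the same fit. Tph1, which makes serotonin from tryptophan, rose by 1.64 (SE 0.38) and 1.80 (SE 0.34) in the day-2 groups.

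In the chaperone complex and turnover list, 0 of 8 met the call in limma and the median was -0.11. Of the 8, 4 were at an unadjusted p under 0.05, as were 44.1% of all genes. Its largest fold was that of Src, a kinase held in the AHR complex, at 0.44 (SE 0.08, adjusted p = 0.00205). In the list of hypoxia targets of HIF1A and ARNT, 0 of 12 met the call and the median was 0.16. Of the 12, 7 were at an unadjusted p under 0.05, beside the same 44.1% of all genes. Pdk1, which holds back pyruvate oxidation, had the largest fold at -0.999 (SE 0.24, adjusted p = 0.0059), just short of the minimum. With each line averaged first, Pdk1 was at a limma adjusted p of 0.0186. In that fit Slc2a1 was higher at 0.83 (limma adjusted p = 0.00399), also short of the minimum fold. No other gene of the list was under 0.01 there. From day 2, 3 of the 12 hypoxia targets were higher by the call with indirect CAP and 4 with PAM, 0 were lower, beside 11.9% and 17.3% of genes called either way, and the medians were 0.58 and 0.55, where those of all genes were -0.01 and -0.12. Vegfa, an angiogenic growth factor, Slc2a1, a glucose transporter, and Pfkfb3, a regulator of glycolysis, were called in both groups and Adm in day-2 PAM, all named after their values were seen. Vegfa went from 1130 ± 244 untreated to 5753 ± 1563 with day-2 indirect CAP, a log2 fold change of 2.34 (SE 0.21, adjusted p = 0.000118). At day 1 it was called with indirect CAP (1.05), and with day-1 PAM Slc2a1 was higher and Pdk1 lower (-1.36).

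**Figure D4:**
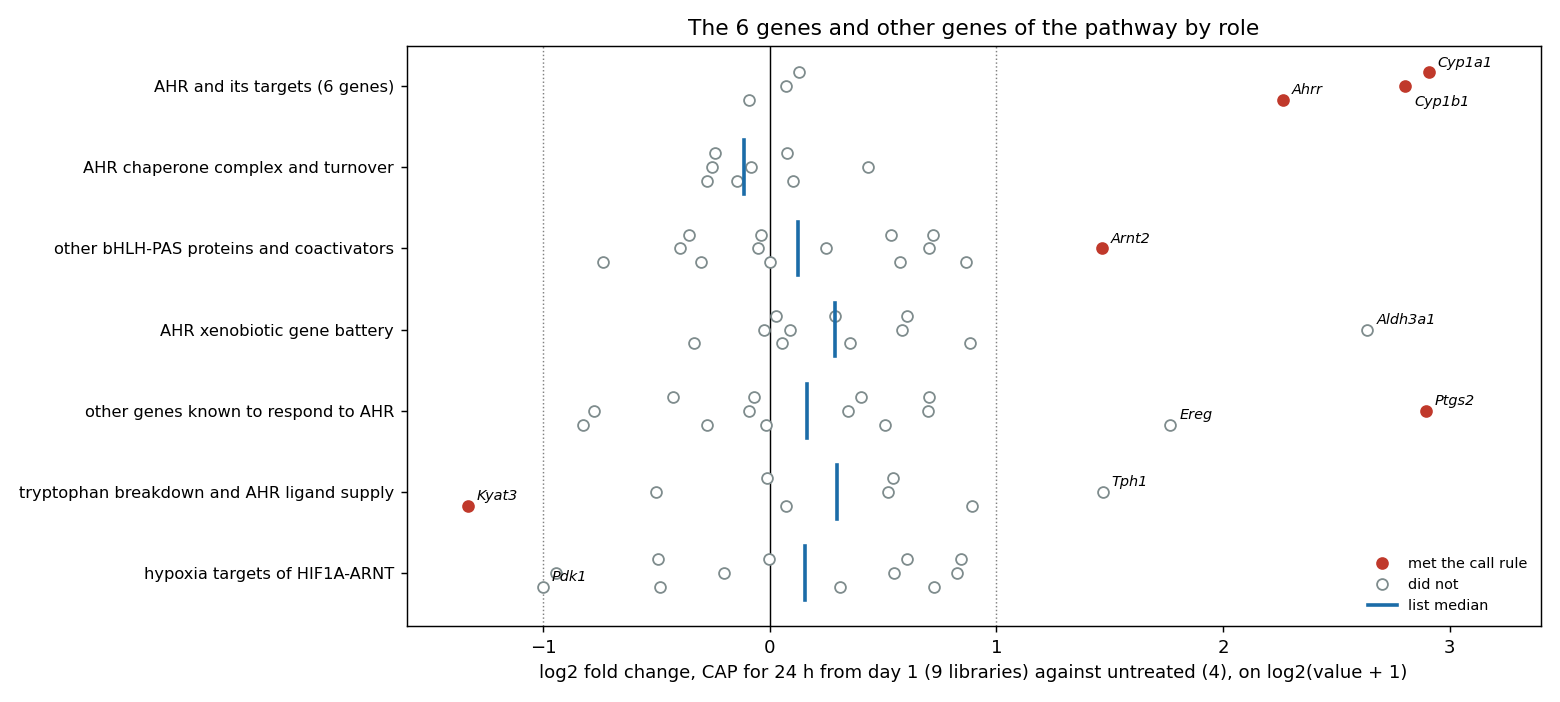
Log2 fold change of the 6 members and of the tested genes of 6 pathway lists, for 24 h of exposure from day 1 (9 libraries) against untreated (4). Filled red points met the call, open points did not, blue bars are list medians and dotted lines mark a fold of 1 either way. Cyp1a1, Cyp1b1 and Ahrr lie between 2.26 and 2.91, and all list medians lie between -0.11 and 0.30.

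Over the 22 libraries, the members did not all follow the same course. The Pearson r of log2(value + 1) was 0.80 between Cyp1a1 and Ahrr, 0.63 between Cyp1a1 and Cyp1b1, 0.52 between Cyp1b1 and Ahrr, and 0.71 between Arnt and Tiparp. It was -0.03 between Cyp1a1 and Arnt and 0.01 between Cyp1a1 and Ahr. Cyp1b1 was at -0.52 with Arnt, -0.44 with Ahr and -0.33 with Tiparp. Ahrr was at 0.29 with Ahr and -0.28 with Tiparp, and the remaining pairs lay between -0.14 and 0.25. The libraries share lines, groups and scaling, so these values describe the set and have no p.

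Among 19369 genes compared over the same 22 libraries, those closest to Cyp1a1 were Ikbkg (r = 0.92), Vangl1 (0.89), Prn (0.88), Fam212b (0.88) and Pias3 (0.87). For Cyp1b1 they were Sh3kbp1 (0.90), Fkbp5 (0.89), Epha4 (0.87), Chn2 (0.85) and Akr1b10 (0.85). For Ahrr they were Col4a2 (0.92), Gm29587 (0.92), Ehd2 (0.92), Map6 (0.91) and Col4a1 (0.91), of which Col4a1 and Col4a2 encode the chains of basement membrane collagen.

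The genes closest to Arnt were Sik3 (0.96), Mef2a (0.95), Dot1l (0.95), Dnajc13 (0.94) and Fam160a2 (0.94), and those closest to Tiparp were Rnf19a (0.89), Slc16a5 (0.88), Mir8097 (0.87), Creb3l3 (0.87) and Ren1 (0.87). Ahr had the weakest neighbours, Prkca (0.75), Sema4g (0.74), Usp45 (0.74), Asb1 (0.73) and Erc1 (0.72). No member was among the 5 nearest genes of another.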

How the data were processed

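RNA from 22 organoid libraries was sequenced as paired-end reads of 100 bases. The authors trimmed reads with Trimmomatic 0.36, aligned them with STAR 2.5.3a to GRCm38.p4 (mm10) and counted them with HTSeq 0.9.1, as the submitters' processing notes and the paper state. The deposited unit is a score per gene and library, which is the authors' read count scaled to a library total of 20 M and rounded up. The paper defines it per kilobase, but the deposited values are not divided by length. Raw counts were not used here, so the count test of the authors was not run.

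Genes were matched by identifier to GENCODE vM21 on GRCm38 (52489 of 52636, 99.7%), and promoters came from a RefSeq table. Values were fitted as log2(value + 1) with limma 3.58.1 (trended, R 4.3.3) over genes with 10 or more in at least 3 libraries fitted. The call asked for an adjusted p under 0.01 together with a change of 1 or more on the log2 scale. Fits were tested on simulated, independent libraries, with changes set only in genes above a minimum mean. That test does not cover genes at low values or libraries that share a line. Plots were drawn in matplotlib 3.10.9 (Python 3.11.15). None of 24 replicate pairs was a copy.

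The members and lists were chosen with earlier results of these data known. Named genes were all members, the called genes of each list (up to 4, or else the gene with the largest fold), Cyp1a2, Nqo1, Hif1a, Rnf43 and Znrf3, and the 5 genes nearest to each member. Other genes of the lists were named after their values were seen. Libraries with the same line number come from the same mouse. After removal of group means the median correlation was 0.536 within lines and -0.306 between lines, and all 45 treated pairs of 1 line were at 0.219 or above. The untreated libraries of lines 1 and 2 were at 0.131 with their own line and 0.422 with each other's, so the pairing of these libraries is in doubt. Alternatives were 1 fit of all 7 groups, line as a replicate block, no filter, a pseudocount of 10, quantile normalization, a looser call (adjusted p under 0.05, any fold) leaving out each library and, added after seeing the data, the mean of the 3 libraries of each line. In a single group each line gave 1 library, so its errors are the spread between lines. In the 9 libraries of 24 h of exposure from day 1, each line gave 3, so the SD and SE also mix libraries of the same mouse.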

Additional observations from a re-analysis of the deposited data

Results flagged for a closer look

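The untreated library of line 3 stood apart from the other untreated libraries for both P450 genes. For Cyp1a1 the gap between its 73 and the next value, 15, was 0.921 of the whole range of the 4 libraries, and for Cyp1b1 the gap between 20 and 3 was 0.895 of the range, both above the limit of Dixon's test. That limit is meant for about 1 of 20 groups of normally distributed values. Here it was applied to low, unlogged values at both ends for every member, and both gaps are of the same library, so that rate does not hold. Line 3 gave no treated library, so its values could not be set against treatment in the same line. It was also the highest untreated library for the sums of mesenchymal markers, at 39 against 13 to 22, and of endothelial markers, at 33 against 12 to 19. Over all libraries Pdgfrb reached 35 and Tek 104, while Cdh5, Kdr, Dcn, Lum and Thy1 did not exceed 3. The part of these markers was not tested.

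Cyp1b1 lay on opposite sides of the untreated mean in the groups treated at day 1 and from day 2. For indirect CAP and PAM, the start goes with age of the medium and time to collection. Every library of the day-2 groups lay below the mean of the untreated libraries on the log2(value + 1) scale, and every library of the 4 groups treated at day 1 lay above it. Day-2 indirect CAP differed by -2.93 from direct CAP for 30 min, by -4.41 from direct CAP for 24 h, by -3.07 from day-1 indirect CAP and by -5.08 from day-1 PAM. Day-2 PAM differed by -2.60, -4.07, -2.73 and -4.75 from the same groups in the same order. These differences were not tested, except that between day-2 and day-1 PAM, which was fitted and did not meet the call. In that fit Cyp1b1 passed the filter only through day-1 PAM. The day-2 values rest on 0 to 3 scaled reads per library. The untreated mean is raised by line 3, at 20 against 1 to 3, and within lines 1, 2 and 4 the day-2 differences from untreated were -2.0 to 0.58, so the day-2 groups were not shown to be below these lines.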

How the results depend on the processing

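Of 1031 recomputed fold changes of members, 1018 moved by less than 1 SD and 0 called values changed sign. Most member folds did not meet the call, and among those some signs did change. Ahr for day-1 indirect CAP against untreated kept its sign in 10 of 13 settings. Tiparp for day-1 PAM against day-1 indirect CAP kept it in 8 of 12. The fold of Cyp1b1 shrank with a pseudocount of 10, to 1.54 for 24 h of exposure from day 1, 1.67 for direct CAP for 24 h and 2.24 for day-1 PAM. The number of members meeting the call moved more. For 24 h of exposure from day 1 it was 0 to 3 when 1 library was left out and 0 with the mean of the libraries of each line, where the lists gave 1. For direct CAP for 24 h it was 2 with all 7 groups in 1 fit, 3 at an adjusted p under 0.05 and any fold (17.3% of all genes), and 0 to 2 with 1 library left out. For day-1 indirect CAP it was 0 to 1 with 1 library left out, and for day-1 PAM it was 1 with no filter and 0 to 3 with 1 left out. At an adjusted p under 0.05 it was 2 for day-2 indirect CAP (43.8% of genes) and 3 for day-2 PAM (47.6%), which gave 0 to 1 with 1 library left out. Day-2 against day-1 PAM gave 1 with all 7 groups in 1 fit. The lists gave 28 called genes of 67 at an adjusted p under 0.05 and any fold, beside 33.5% of all genes, and 2 to 5 with 1 library left out. Under quantile normalization Ahr in day-1 PAM turned from -0.09 to 0.02.

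With line as a replicate block, which leaves out untreated line 3, 2 members met the call for direct CAP for 24 h, 1 for day-1 indirect CAP, and 7 list genes did for 24 h of exposure from day 1. The block moved no other count by more than 1.5 times. Blocked values against untreated rest on the line labels, in doubt for untreated lines 1 and 2. Members with values near 10 are limited by counting error, which leaves Cyp1b1 and Ahrr less certain than Ahr, Arnt and Tiparp. The untreated values of Cyp1a1 are also near 10, at 14, 15 and 10 in lines 1, 2 and 4. Its fold for 24 h of exposure from day 1 went from 2.91 to 2.42 with a pseudocount of 10.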
